A study of Rattus norvegicus with 13 samples.

Results

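The genes described here are 10 genes used to tell atrial from ventricular heart muscle: Myl4, Myl7, Sln, Bmp10, Pam, Dkk3, Gja5, Nr2f1, Nr2f2 and Kcnj3. They are a list of names, drawn up with earlier results of these data known, and no value entered the rule that finds them among the 25600 gene names of the 2-month table and the 38600 names of the 6- and 8-month tables, which have 23018 names in common. All 10 were listed in each table. Bulk RNA of rat heart tissue was measured in 13 libraries. Control hearts (WT, genotype WT, no treatment) gave 2 libraries at 2 months and 3 at 6 months. Sonogenetic hearts (ST) came from rats given AAV2/9-cTnT-MscL-G22S-mCherry, a viral vector that carries a mechanosensitive bacterial channel and a red fluorescent protein under the cardiac troponin T promoter, which drives expression in heart muscle cells. They gave 2 libraries at 2 months, 3 at 6 months and 3 at 8 months, and no 8-month WT library was used here. The libraries of a group are labelled biological replicates. The labels do not say whether the months are ages or times after the vector, give no vector-only control, and do not say which chambers entered each piece of tissue.

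Atrial and ventricular muscle cells share most of their contractile proteins but use different light chains of myosin. Atrial cells carry Myl4 and Myl7 where ventricular cells carry Myl3 and Myl2. The transcription factors Nr2f1 and Nr2f2 set atrial identity, and atrial cells are also rich in sarcolipin (Sln), the potassium channel subunit Kcnj3, the gap junction protein connexin 40 (Gja5), the amidating enzyme Pam and the secreted proteins Bmp10 and Dkk3. Several of these genes are active outside the atria as well: Gja5 in arterial endothelium and in the ventricular conduction fibres, Nr2f2 in veins and lymphatics, and Dkk3 and Pam in other cell types. In bulk tissue, fewer cells of a type and less RNA per cell cannot be told apart.

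The vector's transcript was counted in every ST library and in none of the 5 WT libraries. It gave 127 and 94 counts at 2 months, 1321, 767 and 1667 at 6 months, and 752, 610 and 1003 at 8 months. Total counts per library, in units of 1e6, were 6.54 to 11.3 at 2 months, 6.72 to 8.49 at 6 months and 4.70 to 5.57 at 8 months. On the scale of counts per 1e6 (CPM), 3 counts correspond to between 0.266 and 0.639. The tissue carried ventricular markers at high level: Myl2 averaged 4054 CPM in WT at 2 months and 7012 CPM in WT at 6 months. WT 2-month replicate 1 stood apart, with the highest Myl4 of all libraries, and each 2-month call of the 10 genes is given with its value or adjusted p without that library. Levels below are CPM after trimmed-mean (TMM) scaling, computed within the 2-month table and jointly over the 6- and 8-month tables.

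RefSeq promoter entries (build GRCr8) were found for 6 of the 10 genes: Myl4, Myl7, Bmp10, Pam, Gja5 and Nr2f1. The 250 bases before the start are shown for Gja5 and Pam, both of which rose in ST hearts at 6 months, and for the atrial light chain Myl4, which did not pass the test there. Capitals mark matches, on either strand, to the letters searched.
Gja5, chr2:187290977-187291226, plus strand: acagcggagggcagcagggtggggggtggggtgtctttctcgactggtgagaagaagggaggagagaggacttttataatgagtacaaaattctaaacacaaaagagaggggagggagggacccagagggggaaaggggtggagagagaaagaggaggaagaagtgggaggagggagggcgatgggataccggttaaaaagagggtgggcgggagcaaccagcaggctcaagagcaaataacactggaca
Pam, chr9:105570118-105570367, plus strand: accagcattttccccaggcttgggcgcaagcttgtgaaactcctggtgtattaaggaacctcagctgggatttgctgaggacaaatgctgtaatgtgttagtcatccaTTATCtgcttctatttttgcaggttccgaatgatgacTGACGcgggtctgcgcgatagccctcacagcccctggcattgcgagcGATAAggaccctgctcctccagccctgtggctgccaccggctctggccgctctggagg
Myl4, chr10:89975900-89976149, plus strand: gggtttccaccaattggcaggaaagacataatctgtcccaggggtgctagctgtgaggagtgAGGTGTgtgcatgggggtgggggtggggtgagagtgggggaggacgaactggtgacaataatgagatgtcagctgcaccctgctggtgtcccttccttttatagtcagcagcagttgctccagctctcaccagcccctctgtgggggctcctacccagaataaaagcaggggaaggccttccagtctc
The letters searched were GATAA (GATA factors), AGGTGT (T-box factors), TGANTCA (AP-1), TGACG (the core of the cAMP response element) and CATTCC (TEAD), with a MEF2 motif beside them. Pam held GATAA beginning at positions -142 (on the reverse strand) and -58, and TGACG at -105, counted from the start. Myl4 held AGGTGT at -188. The Gja5 window held none of the searched motifs, and neither did that of Nr2f1. Among all 33469 promoter windows of this length, 23.5% held GATAA, 18.2% TGACG, 12.1% CATTCC, 11.6% AGGTGT, 6.34% TGANTCA and 3.41% the MEF2 motif. The windows of Pam and Myl4 end at a start inside the annotated gene, and that of Gja5 at its outermost start. These matches are letters in a window and were not measured as binding sites.

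The first question was whether ST hearts differed from WT hearts of the same time point in these genes. At 2 months, Kcnj3 and Dkk3 were higher in ST hearts and Myl4 was lower. Of 8 genes tested, 2 were higher, 1 was lower and 5 did not pass an adjusted p of 0.05, beside 4.8% called among all 12121 genes (2.7% higher, 2.1% lower). Sln and Bmp10 had too few counts to be tested. The WT and ST values did not overlap for 4 of the 8 genes, against 48.9% of all genes. Leaving out WT replicate 1 leaves 1 WT library, which also lowers the power to detect differences. The calls were lost there, as given with each gene below. The log2 fold change was then -0.61 for Myl4 (-1.53 with it) and 0.52 for Kcnj3 (0.65 with it). That of Dkk3 (0.50) ran from 0.43 to 0.57 over the 10 alternatives.

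At 6 months, Sln, Pam, Gja5 and Nr2f1 were higher in ST hearts, and Myl7, Nr2f2 and Kcnj3 were lower. Of 9 genes tested, 4 were higher, 3 were lower, and Myl4 and Dkk3 did not pass. The share called among all 13253 genes was 40%, with 19.9% higher and 20.1% lower. The median log2 fold change of the 9 genes was -0.07, against 0.00 over all genes. Groups did not overlap for 6 of the 9 (Myl7, Pam, Gja5, Nr2f1, Nr2f2 and Kcnj3), against 51.7% of all genes.

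ST hearts at 8 months were compared with ST hearts at 6 months, and with WT hearts at 6 months. Against ST at 6 months, Myl7, Sln, Nr2f2 and Kcnj3 were higher and Pam, Dkk3 and Gja5 were lower. Thus 4 of 9 tested genes were higher and 3 lower, beside 39.6% called among 12931 genes (19.1% higher, 20.5% lower). Against WT at 6 months, Sln and Nr2f1 were higher, Dkk3 was lower and 6 of the 9 did not pass, beside 33.9% called among 13095 genes (17.8% higher, 16.1% lower). Groups did not overlap for 5 of the 9 genes against ST at 6 months, beside 51% of all genes, and for 4 of the 9 against WT, beside 46.7% of all genes. These comparisons share libraries with the 6-month comparison, so their values are set side by side and do not support each other. In the comparison with WT, the vector and the time point cannot be told apart, and in both the time point and the table cannot.

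**Figure D1:**
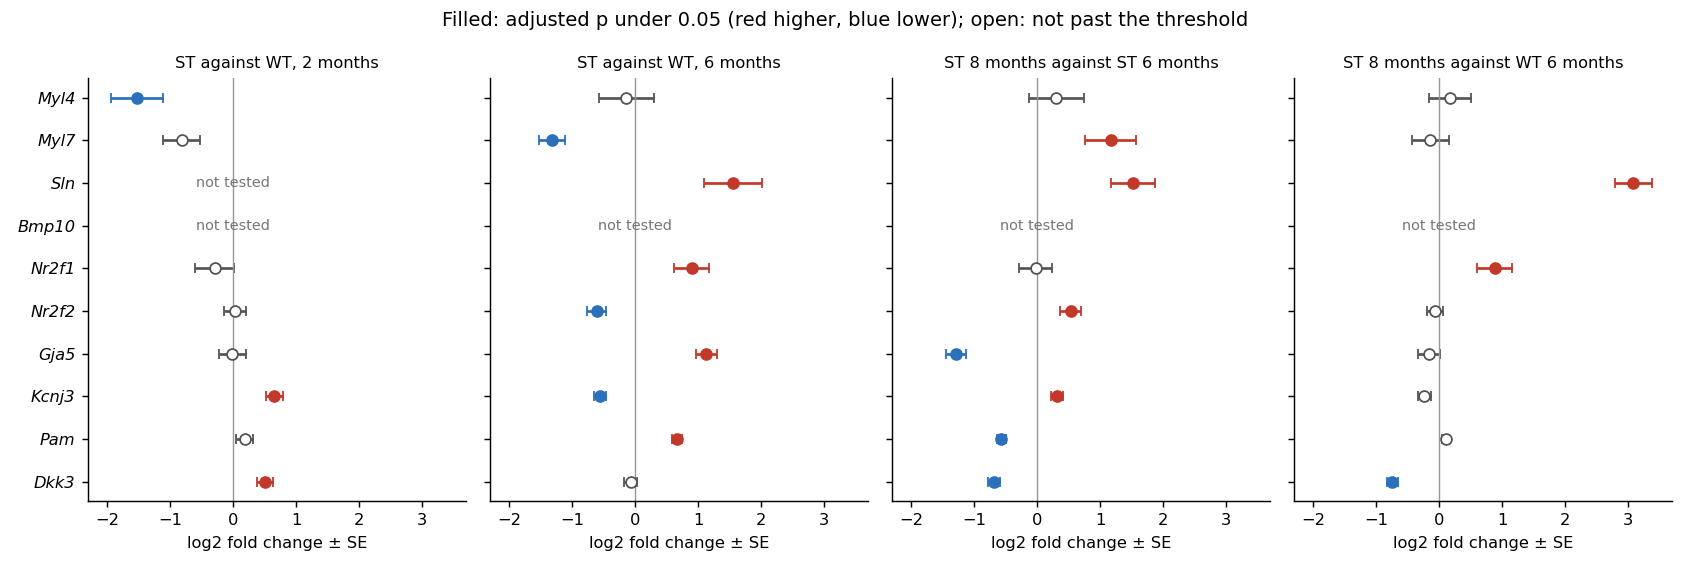
Log2 fold change (horizontal axis, bars are SE) of each of the 10 genes (rows) in the 4 comparisons (panels). Filled points passed an adjusted p of 0.05 (red higher, blue lower), and at 6 months points lie on both sides of 0, from Myl7 at -1.32 to Sln at 1.55.

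Myl7, the atrial regulatory light chain, was lower in ST hearts at 6 months. Its level was 19.5, 17.1 and 24.6 CPM in the WT hearts and 7.09, 11.2 and 5.88 CPM in the ST hearts. All 3 ST values lay below all 3 WT values, with a log2 fold change of -1.32 (SE 0.209, adjusted p = 0.000413). At 8 months the ST hearts were split: replicate 1 had 5.08 CPM, and replicates 2 and 3 had 22.7 and 26 CPM. The log2 fold change against ST at 6 months was 1.16 (SE 0.400, adjusted p = 0.0346), although the groups overlapped. That call was lost with DESeq2 (adjusted p = 0.227) and without ST 6-month replicate 1 (0.0929) or 3 (0.0937) or ST 8-month replicate 2 (0.156) or 3 (0.217). Without ST 8-month replicate 1 the log2 fold change was 1.57. Against WT at 6 months it was -0.14 (adjusted p = 0.753). At 2 months Myl7 was 18.3 and 11.6 CPM in WT and 11.7 and 5.06 CPM in ST, overlapping groups with a log2 fold change of -0.81 (SE 0.293, adjusted p = 0.138). It moved with each library: it passed without WT replicate 2 (-1.10, adjusted p = 0.00226) or ST replicate 1 (-1.59, adjusted p = 0.000143), and was -0.43 without WT replicate 1 (adjusted p = 0.744). Leaving out ST replicate 2 gave -0.38 (adjusted p = 0.256).

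Myl4, the atrial essential light chain, had a negative log2 fold change at 2 months, as had Myl7 (-0.81, not past the threshold). At 6 months Myl7 was lower in ST, and Myl4, with few counts, did not pass. At 2 months Myl4 had 75 and 20 counts (8.36 and 3.13 CPM) in WT and 28 and 13 counts (2.49 and 1.53 CPM) in ST. WT replicate 1 was far above the other 3 libraries. The log2 fold change was -1.53 (SE 0.414, adjusted p = 0.0427). It was -0.61 without WT replicate 1 (adjusted p = 0.854), and the call was also lost without ST replicate 2 (adjusted p = 0.0590) and with DESeq2 (adjusted p = 0.146). At 6 months the counts were 11, 17 and 11 in WT and 3, 15 and 17 in ST, and at 8 months 10 in each ST heart. The ST 6-month spread, 0.462 to 2.22 CPM, contained all WT values, and the log2 fold change was -0.14 (adjusted p = 0.819). It was 0.30 for ST at 8 against 6 months and 0.17 for ST at 8 months against WT, neither past the threshold. With 3 to 17 counts per library at 6 and 8 months, small differences in Myl4 were not detectable at this depth.

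Set beside their ventricular counterparts, both atrial light chains were a very small part of the counts. Myl7 made up 0.292%, 0.243% and 0.334% of the Myl7 and Myl2 counts in the 6-month WT hearts and 0.0993%, 0.149% and 0.0766% in the ST hearts. The exact (Clopper-Pearson) 95% intervals of every ST heart, the highest reaching 0.183%, lay below those of every WT heart, the lowest starting at 0.203%. The lowest share was 0.0452% (0.0290% to 0.0673%) in ST 8-month replicate 1, and the highest 0.488% (0.416% to 0.569%) in WT 2-month replicate 1. For Myl4 in the sum of Myl4 and Myl3 the share ran from 0.00841% (0.00173% to 0.0246%) in ST 6-month replicate 1 to 0.221% (0.174% to 0.277%) in WT 2-month replicate 1. These intervals cover counting error only, and the shares are of counts, not of molecules per length. Myl2 itself did not pass at 6 months (log2 fold change 0.09, adjusted p = 0.227) and was higher at 8 than at 6 months in ST (0.56, adjusted p = 3.89e-07), which enters the 8-month share.

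**Figure D2:**
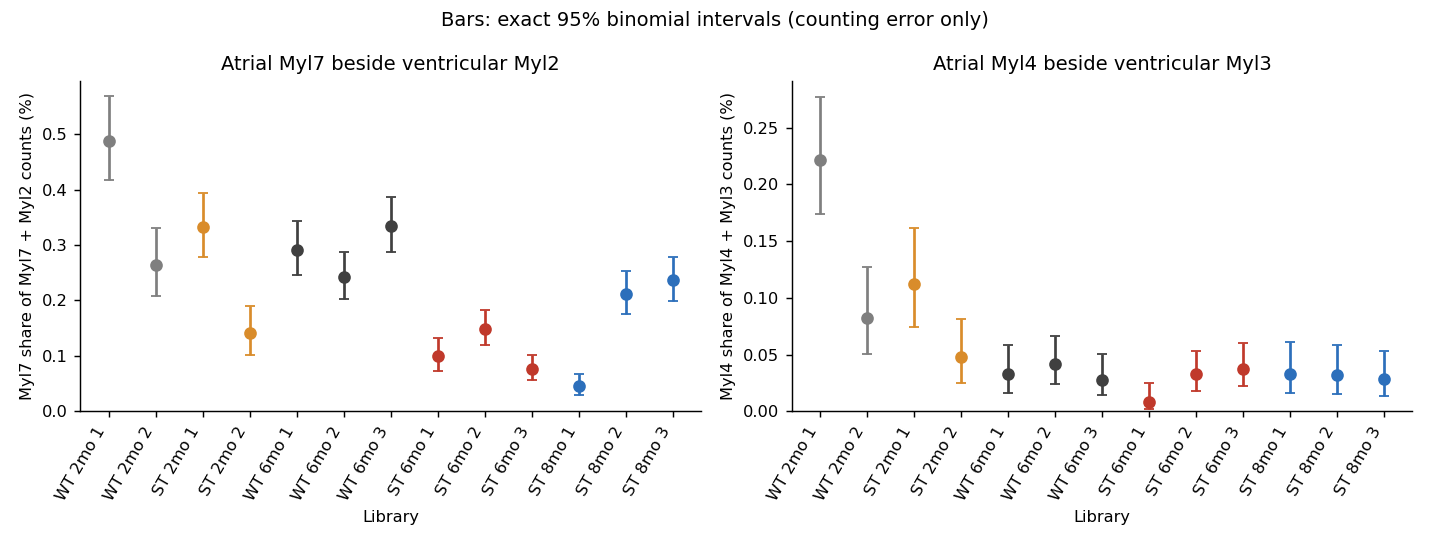
Share of Myl7 in the Myl7 and Myl2 counts (left) and of Myl4 in the Myl4 and Myl3 counts (right), in percent, for each of the 13 libraries with exact 95% binomial intervals. WT 2-month replicate 1 is highest in both panels, at 0.488% and 0.221%, while ST 8-month replicate 1 is lowest for Myl7 only, at 0.0452%.

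Sln encodes sarcolipin, a small membrane peptide that inhibits the calcium pump of the sarcoplasmic reticulum. It had 0 counts in both WT hearts at 2 months, and 8 and 1 counts in the ST hearts. At 6 months it was 1.5, 2.19 and 3.74 CPM in WT and 12.3, 7.0 and 3.01 CPM in ST, so that ST replicate 3 lay within the WT range. The log2 fold change was 1.55 (SE 0.459, adjusted p = 0.0183). The call was lost with DESeq2 (adjusted p = 0.0576) and without WT replicate 1 (0.0705), WT replicate 2 (0.0688) or ST replicate 1 (1.03, 0.0865). At 8 months Sln was 12.3, 23.7 and 26 CPM. Every 8-month ST heart was above every 6-month WT heart, with a log2 fold change of 3.08 (SE 0.293, adjusted p = 8.73e-07) that stayed past the threshold in all 12 alternatives run. Against ST at 6 months it was 1.52 (SE 0.350, adjusted p = 0.00423), lost with DESeq2 (adjusted p = 0.0620). Sln is also a skeletal muscle gene. The summed skeletal muscle markers were 13.1 to 18.0 CPM in WT at 6 months, 12.0 to 14.6 in ST at 6 months and 15.1 to 17.6 in ST at 8 months, with Pvalb at 0 in each of these libraries. In the ST against WT test at 6 months 1 of 3 tested skeletal markers was lower and none was higher, beside 40% of all genes called. The lower one was Myh2 (-1.05, adjusted p = 0.0391, lost in 5 of 12 alternatives). Tnnt3 (0.63, adjusted p = 0.0502) and Mybpc2 (-0.46, adjusted p = 0.0729) did not pass. For ST at 8 against 6 months 1 of 2 was higher (Mybpc2, 0.74, adjusted p = 0.00475), beside 39.6% of all genes called. The other, Tnnt3, had a negative log2 fold change and did not pass (-0.70, adjusted p = 0.0603). The part of skeletal muscle in the Sln results was not tested.

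Bmp10, a secreted ligand made by right atrial muscle, was hardly detected. It had 0 and 2 counts in WT and 0 in both ST hearts at 2 months, and 0 in all 3 WT hearts at 6 months. The ST hearts had 3, 0 and 1 counts at 6 months and 1, 2 and 1 at 8 months. No library had more than 3 counts, so no comparison was made.

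The 2 orphan nuclear receptors moved in opposite directions at 6 months. Nr2f1 was 2.18, 1.67 and 2.27 CPM in WT and 2.62, 4.05 and 4.58 CPM in ST, with no overlap and a log2 fold change of 0.90 (SE 0.278, adjusted p = 0.0231). Its call was lost with DESeq2 (adjusted p = 0.0857) and without WT replicate 1 (0.0502), WT replicate 2 (0.0922), ST replicate 2 (0.0512) or ST replicate 3 (0.103). At 8 months Nr2f1 was 4.23, 3.76 and 3.27 CPM, a log2 fold change of -0.03 against ST at 6 months (adjusted p = 0.946) and of 0.88 against WT (SE 0.274, adjusted p = 0.0201). The second was lost with DESeq2 (adjusted p = 0.102) and without WT replicate 2 (0.0793), ST 8-month replicate 1 (0.0769) or ST 8-month replicate 2 (0.0586). At 2 months Nr2f1 was 5.68 and 3.76 CPM in WT and 3.64 and 4.24 CPM in ST, and did not pass (-0.30, adjusted p = 0.657).

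Nr2f2 was 18.3, 15.5 and 18.3 CPM in WT at 6 months and 13.6, 11.7 and 8.89 CPM in ST. All ST hearts were lower, with a log2 fold change of -0.61 (SE 0.151, adjusted p = 0.00712) that kept its call in all 12 alternatives run. At 8 months the ST hearts had 19.0, 15.0 and 15.2 CPM, higher than ST at 6 months by a log2 fold change of 0.53 (SE 0.166, adjusted p = 0.0222). That call was lost with DESeq2 (adjusted p = 0.0588) and without ST 6-month replicate 3 (0.0888) or ST 8-month replicate 1 (0.104). Nr2f2 did not pass for ST at 8 months against WT at 6 months (-0.07, adjusted p = 0.709) or for ST against WT at 2 months (0.03, adjusted p = 0.948). The list of vein and lymphatic endothelial markers holds 10 genes, Nr2f2 among them. Beside 40% of all genes called, 3 of the 10 were higher and 2 lower in ST at 6 months. The other lower member was the transcription factor Prox1 (-1.25, adjusted p = 5.69e-06). The higher ones were the lymphatic receptor Flt4 (0.62, adjusted p = 0.00777), the venous receptor Ephb4 (0.38, adjusted p = 0.00903, past the threshold in 10 of 12 alternatives) and the venule marker Ackr1 (0.82, adjusted p = 0.0245, past the threshold in 6 of 12 alternatives). The summed level of that list was 400 to 468 CPM in WT and 354 to 411 CPM in ST, and its part in the Nr2f2 result was not tested.

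Among the membrane proteins, Gja5 (connexin 40) was 11.6, 11.2 and 8.01 CPM in the WT hearts at 6 months and 23.4, 18.4 and 25.6 CPM in the ST hearts. Each ST heart was above each WT heart, with a log2 fold change of 1.13 (SE 0.163, adjusted p = 0.000208). At 8 months the ST hearts had 10.2, 9.40 and 7.99 CPM, below all 6-month ST hearts (-1.30, SE 0.159, adjusted p = 3.87e-05) and overlapping with WT (-0.16, adjusted p = 0.527). Both calls held in all 12 alternatives run. At 2 months the values were 10.6 and 13.8 CPM in WT and 10.3 and 13.8 CPM in ST (-0.01, adjusted p = 0.980). Of 8 arterial endothelial markers at 6 months, 2 were higher and 2 lower, beside 40% of all genes called. The Notch ligand Dll4 (0.48, adjusted p = 0.0129) and the elastic fibre protein Fbln5 (0.39, adjusted p = 0.0165) were higher, while the transcription factor Hey2 (-1.42, adjusted p = 0.000757) and the ephrin Efnb2 (-0.32, adjusted p = 0.0189) were lower. The calls of Dll4, Fbln5 and Efnb2 were each lost in 3 of 12 alternatives. Hey2 is also on the ventricular list. The arterial sum was 172 to 195 CPM in WT, 156 to 194 CPM in ST at 6 months and 185 to 238 CPM in ST at 8 months. Other vessel markers were also counted in ST against WT at 6 months. General endothelial markers were higher in 3 of 8 and lower in 2. Smooth muscle markers were higher in 5 of 7 and lower in none. For ST at 8 against 6 months none of the 7 smooth muscle markers passed. Of 13 conduction and nodal markers, 8 were tested at 6 months. Beside 19.9% of all genes higher and 20.1% lower, none of the markers was higher and 3 were lower. These were Etv1 (-1.62, adjusted p = 0.000278), a factor of fast-conducting muscle, Vsnl1 (-1.62, adjusted p = 0.00446) and the T-type calcium channel Cacna1g (-0.56, adjusted p = 0.0249, lost in 3 of 12 alternatives). Their sum was 105 to 109 CPM in WT, 70.4 to 80.7 in ST at 6 months and 86.0 to 96.2 in ST at 8 months, with Isl1 and Scn10a at 0 in each of these libraries. The part of these cells in the Gja5 result was not tested.

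Kcnj3 encodes GIRK1, a subunit of the acetylcholine-gated potassium channel. At 2 months it was 39.7 and 47.8 CPM in WT and 68.0 and 69.1 CPM in ST, with both ST hearts above both WT hearts. The log2 fold change was 0.65 (SE 0.138, adjusted p = 0.0105), and 0.52 without WT replicate 1 (adjusted p = 0.341). At 6 months the order was the reverse: 89.7, 106 and 110 CPM in WT and 72.3, 63.2 and 71.0 CPM in ST, a log2 fold change of -0.56 (SE 0.0917, adjusted p = 0.000516). At 8 months Kcnj3 was 97.1, 88.0 and 73.0 CPM, above all 6-month ST hearts (0.32, SE 0.0987, adjusted p = 0.0218). That call was lost without ST 8-month replicate 1 (adjusted p = 0.121) or 2 (0.0847). Against WT at 6 months it did not pass (-0.23, adjusted p = 0.0801), but did in 4 of 12 alternatives: library size only (0.0292), no filter (0.0159), without WT replicate 1 (0.00911) and without ST 8-month replicate 1 (0.0354). The second atrial list, described below, holds 4 more genes of muscarinic signalling. At 6 months the M2 receptor Chrm2 (-0.86, adjusted p = 3.38e-05), the partner subunit Kcnj5 (-0.86, adjusted p = 0.00452) and the G protein regulator Rgs6 (-0.56, adjusted p = 0.00830) were lower in ST. The G protein subunit Gnao1 had a log2 fold change of 0.20 and did not pass (adjusted p = 0.263). At 2 months none of the 4 passed, with log2 fold changes of 0.29, 0.02, 0.10 and -0.21.

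Pam, which amidates peptide hormones and is held in atrial secretory granules, had the smallest SE of the 9 genes tested at 6 months. There it was 1267, 1250 and 1240 CPM in WT and 2017, 1741 and 2156 CPM in ST. The ST hearts lay well above a narrow WT range, with a log2 fold change of 0.66 (SE 0.0760, adjusted p = 3.93e-05). At 8 months the ST hearts had 1281, 1297 and 1416 CPM, lower than ST at 6 months (-0.57, SE 0.0707, adjusted p = 4.39e-05). Both calls held in all 12 alternatives run. Against WT at 6 months the difference did not pass (0.10, adjusted p = 0.210). At 2 months Pam was 1480 and 1263 CPM in WT and 1570 and 1547 CPM in ST (0.18, adjusted p = 0.517).

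Dkk3, a secreted glycoprotein of the Dickkopf family, was higher in ST at 2 months, with 103 and 115 CPM in WT and 156 and 153 CPM in ST. The log2 fold change was 0.50 (SE 0.128, adjusted p = 0.0303), and the call was lost without WT replicate 1 (adjusted p = 0.515) or 2 (0.169). At 6 months the groups overlapped, at 224, 261 and 277 CPM in WT and 219, 281 and 224 CPM in ST (-0.07, adjusted p = 0.628). At 8 months the ST hearts had 134, 162 and 155 CPM, below every 6-month heart. The log2 fold change was -0.69 against ST at 6 months (SE 0.100, adjusted p = 0.000159) and -0.75 against WT (SE 0.0884, adjusted p = 9.34e-06), and both held in all 12 alternatives run. The fibroblast markers moved in both directions. At 6 months 3 of 8 were higher in ST and 4 lower, beside 40% of all genes called. Tcf21 was at 0.52 (adjusted p = 0.0114) and Col1a1 at -1.16 (adjusted p = 6.05e-06). At 8 against 6 months in ST, 4 of 8 were higher and 3 lower, beside 39.6% of all genes called. There Tcf21 was at -1.46 (adjusted p = 1.08e-05) and Col1a1 at 0.95 (adjusted p = 2.87e-05). The fibroblast markers summed to 2903 to 3165 CPM in WT at 6 months, 3024 to 3432 in ST at 6 months and 2617 to 2981 in ST at 8 months. Gsn, the largest of them, averaged 1819, 2179 and 1623 CPM in these groups, so the sum mostly follows it. Col3a1 averaged 316, 150 and 317 CPM. The part of fibroblasts in the Dkk3 and Pam results was not tested.

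**Figure D3:**
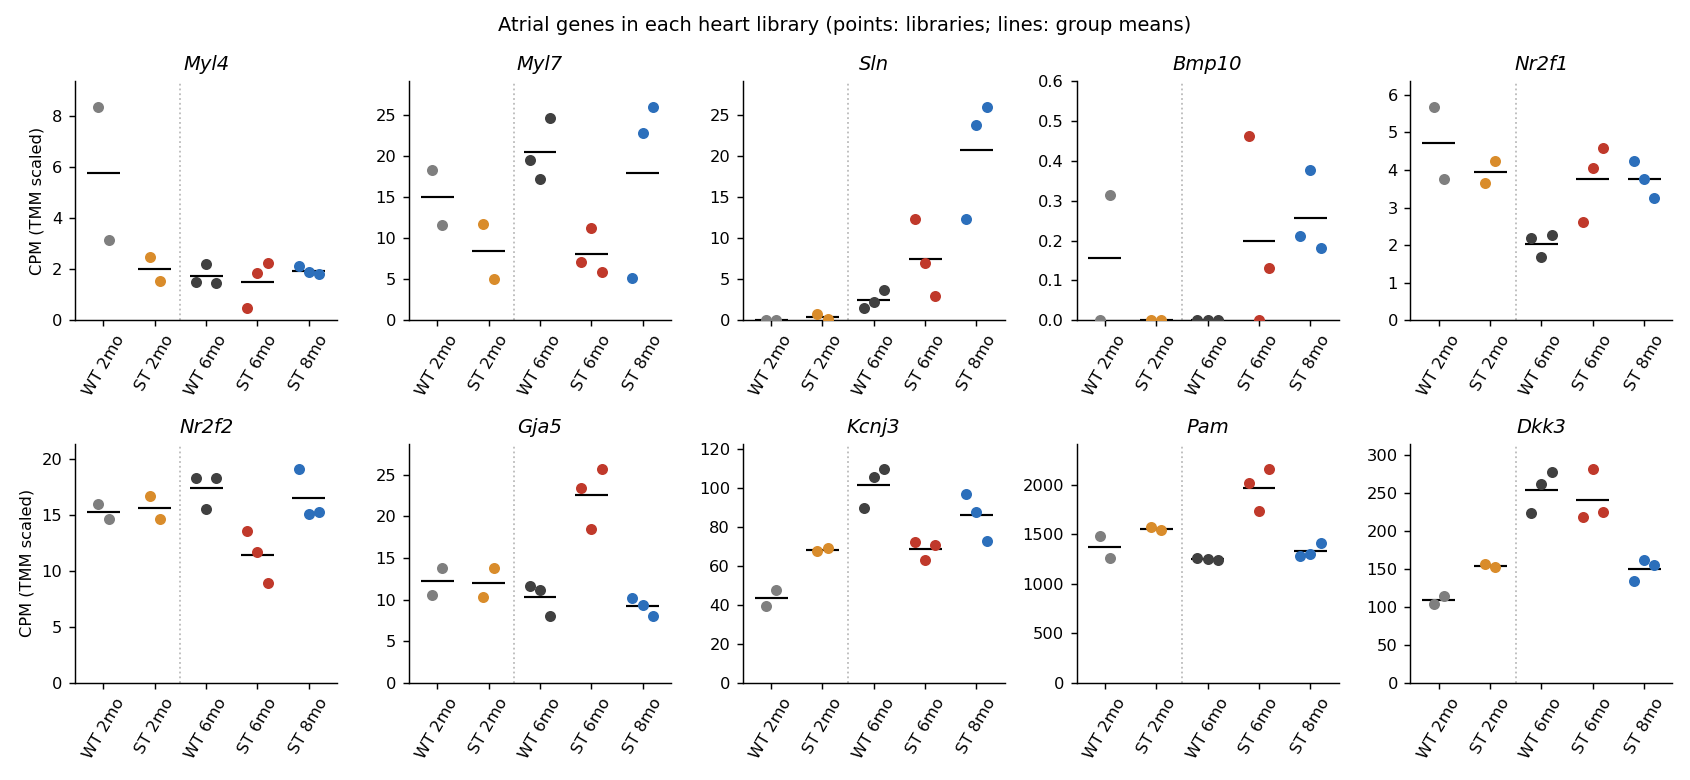
Level of each of the 10 genes in CPM (vertical axes from 0, each with its own scale) in the 13 libraries, shown as points with the group mean as a line. Gja5 and Pam are high in all 3 ST 6-month hearts (18.4 to 25.6 and 1741 to 2156 CPM), and Myl7 is low in ST at 6 months and in 1 of the 3 ST hearts at 8 months.

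Whether the ST effect (ST against WT, with no vector-only control) differed between 6 and 2 months was tested over the 10 libraries of those time points. It differed for 5 of the 9 genes tested, beside 22.2% of all 12658 genes: more positive at 6 months for Pam (by 0.46 on the log2 scale), Gja5 (1.13) and Nr2f1 (1.18), and more negative for Dkk3 (-0.58) and Kcnj3 (-1.23). Kcnj3 passed in all 15 alternatives run and Nr2f1 in 4 of the 15. The number was 2 without WT 2-month replicate 1 or ST 2-month replicate 1, and 3 without ST 6-month replicate 3.

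The second question was whether the genes move together from library to library. Genes made mainly by atrial muscle would do so if pieces of tissue held more or less atrium. Gja5, Nr2f2, Dkk3 and Pam are also active outside the atria, so their levels need not follow it. The amount of atrium in each piece was not measured, and its part in these values was not tested. Each library's log2 CPM (prior count 2) was set against the mean of its own group for the 9 genes other than Bmp10. In no library were all 9 genes on the same side of the group mean: between 3 and 6 of the 9 were above it in each of the 13 libraries. Over the 36 pairs of genes, the median Pearson r of these deviations across the 13 libraries was -0.12, with a range of -0.70 to 0.70. It was above 0 in 13 pairs, above 0.5 in 3 and below -0.5 in 6. These correlations are descriptions over libraries that share tables, depth and group means.

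The atrial light chains themselves gave r = 0.15, and -0.10 over the 6- and 8-month libraries alone, where Myl4 counts were low. In ST 2-month replicate 1 both were above their group means, Myl4 by 0.32 and Myl7 by 0.59. The 3 pairs above 0.5 were Myl4 with Nr2f1 (0.70), Myl7 with Sln (0.64) and Myl7 with Dkk3 (0.57). Myl7 with Gja5 was the lowest at -0.70. In WT 2-month replicate 1, Myl4 was 0.68 above its group mean on the log2 scale, Myl7 0.33, Nr2f1 0.29, Pam 0.12 and Nr2f2 0.07 above, and Nppa, the atrial natriuretic peptide gene, 0.95 above. Gja5, Kcnj3 and Dkk3 were 0.18, 0.13 and 0.07 below. With 2 libraries in that group, replicate 2 mirrors these values. In ST 8-month replicate 1, Myl7 was 1.46 below its group mean and Sln 0.66 below, but Myl4 was 0.11 above and Nppa 0.89 above. In ST 6-month replicate 1, Myl4 was 1.08 below and Sln 0.91 above. In ST 6-month replicate 1 and in ST 8-month replicate 1, 5 of the 9 genes were above their group mean and 4 below. ST 2-month replicate 1 had 6 above and 3 below. WT 2-month replicate 1 had 5 above and 3 below, with Sln at its mean. Nppa ranged from 34.4 to 555 CPM among the ST hearts at 6 months and had r = 0.72 with Pam, -0.22 with Myl7 and 0.11 with Myl4.

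**Figure D4:**
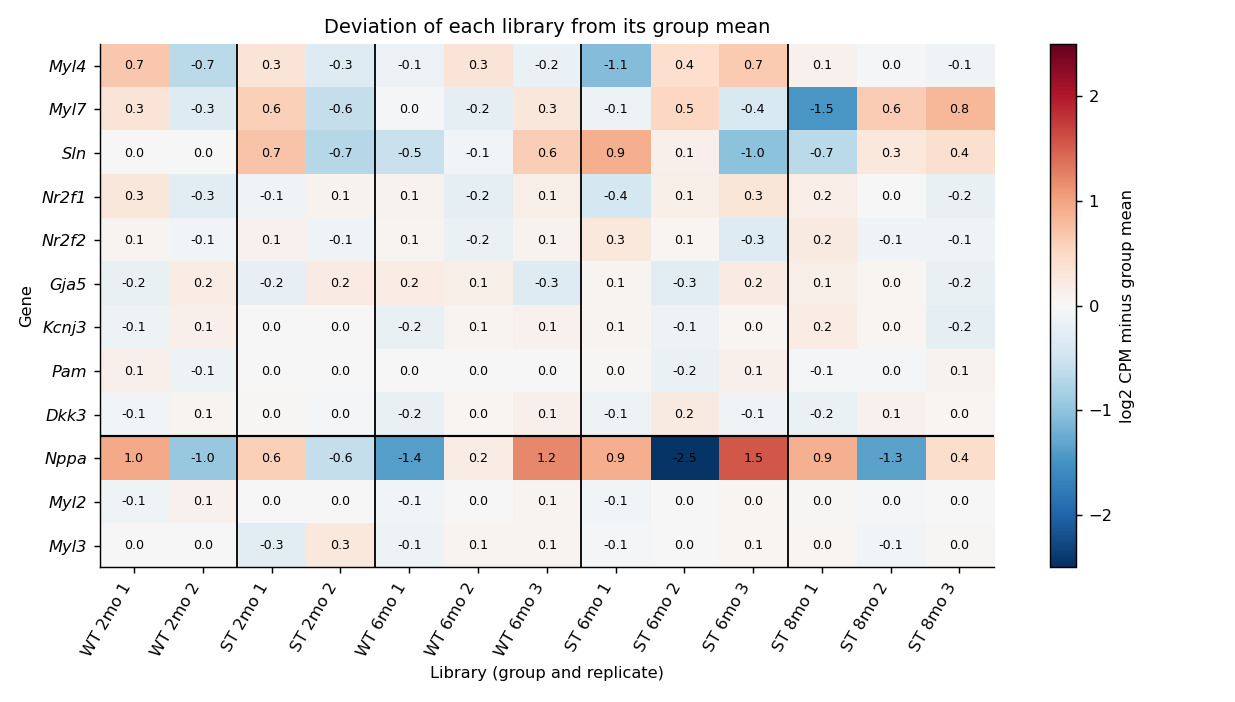
Deviation of each library (columns) from its group mean in log2 CPM for 9 atrial genes and, under the line, Nppa, Myl2 and Myl3 (rows). Red and blue are mixed within each column, with the lowest atrial value at -1.46 for Myl7 in ST 8-month replicate 1.

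A further 14 genes enriched in atrial muscle or its muscarinic signalling were counted as a second list. At 6 months 13 were tested in ST against WT, of which 1 was higher and 8 were lower, with a median log2 fold change of -0.56 against 0.00 over all genes, where 19.9% were higher and 20.1% lower. The higher one was Nppa, at 13.5, 40.4 and 82.6 CPM in WT and 359, 34.4 and 555 CPM in ST (2.79, SE 0.757, adjusted p = 0.0118, lost in 2 of 12 alternatives), where ST replicate 2 lay within the WT range. Chrm2, Kcnj5, the potassium channel Kcna5 (-0.73, adjusted p = 0.00434) and the kinase gene Sbk3 (-1.21, adjusted p = 0.00212) were among the lower ones. At 2 months 12 were tested, with 1 higher and none lower, beside 4.8% of all genes called. This was Kcna5 (1.37, adjusted p = 0.00825), whose call was lost without WT replicate 1 (1.18, adjusted p = 0.0810). For ST at 8 against 6 months 1 of 12 was higher (Stard10, 0.63) and 4 were lower (Kcna5, Kcnj5, Sbk3 and Tbx5), beside 39.6% of all genes called. Of 12 alternatives, the call was lost in 1 for Stard10, 5 for Kcnj5, 6 for Sbk3 and 7 for Tbx5, and in none for Kcna5. For ST at 8 months against WT, 1 of 13 was higher (Nppa, 2.80, adjusted p = 0.000248) and 7 were lower, beside 33.9% of all genes called, with Sbk3 at -2.21 (adjusted p = 6.59e-07) and Kcnj5 at -1.43 (adjusted p = 2.85e-08). Mybphl, an atrial myosin-binding protein, had 0 counts in every 6- and 8-month library. At 2 months it had 7 counts in WT, all in replicate 1 (0.780 CPM), and 1 count in ST. Of the 10 ventricular markers at 6 months, 2 were higher and 5 lower, beside 40% of all genes called. Myl3 was among the higher ones, at 0.18 (adjusted p = 0.0455, lost in 4 of 12 alternatives). The lower ones included the transcription cofactor Lbh at -0.94 (adjusted p = 8.38e-07) and the ventricular transcription factor Irx4 at -1.83 (adjusted p = 1.51e-06).

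The genes whose deviations were most like the mean of Myl4 and Myl7, among 11629 genes over the 13 libraries, were Trps1 (r = 0.96), Sertad4 (0.94), Cp (0.93), Phf7 (0.91), Shisal1 (0.91), Syk (0.90), Itga11 (0.90), Ackr4 (0.89), Slc35a5 (0.89) and Pik3r5 (0.88). None of them is on the second atrial list. They are the highest of 11629 correlations in these same data, with a mean of 2 genes that gave r = 0.15 with each other. On the conduction list r ran from 0.68 (rank 312) for the pacemaker channel gene Hcn4 to -0.17 for Tbx3. The ventricular factor Irx4 had r = 0.58 and rank 765. On the second atrial list the highest was Rgs6 (0.48, rank 1331), and Nppa had r = -0.10 and rank 6786. Hcn4 was 115 CPM in WT 2-month replicate 1 and 31.5 to 44.8 CPM in the other 3 libraries of that time point.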

How the data were processed

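The data are 13 bulk RNA libraries of rat hearts. The authors deposited 1 table of expected counts per time point, in which the values are estimated reads per gene name and need not be whole. The counting tool and genome build for these rat libraries are not given in the sources used here, and the submitters' processing notes name the mouse builds GRCm38 and mm10. Expected counts were rounded. Each comparison was fitted on its own libraries with edgeR 4.0.16 (R 4.3.3; TMM, filterByExpr, quasi-likelihood F test, two-sided), with p-values adjusted by Benjamini-Hochberg over all genes tested and a threshold of 0.05. Standard errors (SE) were approximated as the size of the log2 change over the square root of its F statistic. The fit was tested on simulated data. Alternatives were DESeq2 1.42.0 and its size factors, library size only, no filter and 1 fit over all groups. Others were the replicate number as a block, and leaving out each library, which left 1 library in that group at 2 months. All 10 genes are named. Up to 3 genes of each marker list were named by smallest p, with Nppa, Myl2 and Myl3 always. The text gives those that bear on the 10 genes, and a few others (such as Ephb4, Ackr1, Gnao1 and Tnnt3) chosen after values were seen. Values under other settings were not collected for Tnnt3. The members and lists were chosen with earlier results of these data known. With 2 or 3 libraries a group, precision is low.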

Additional observations from a re-analysis of the deposited data

Results flagged for a closer look

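The ST effect (ST against WT) was compared between 6 and 2 months in 1 fit over 10 libraries with edgeR's quasi-likelihood test, where 22.2% of 12658 genes passed. The time points come from separate tables, so time point and table cannot be told apart. Of the 10 atrial genes, 9 were tested and 5 passed; they are listed here because their ST effect differed between the time points. Kcnj3 was higher in ST at 2 months and lower at 6, a log2 difference of -1.23 (SE 0.156, adjusted p = 4.92e-05). Gja5 went from -0.01 to 1.13 (difference 1.13, adjusted p = 0.00865), Pam from 0.18 to 0.66 (0.46, adjusted p = 0.0208) and Dkk3 from 0.50 to -0.07 (-0.58, adjusted p = 0.0184). Nr2f1 went from -0.30 to 0.90 (1.18, adjusted p = 0.0466), but passed in only 4 of 15 alternatives, with adjusted p up to 0.278. Pam and Gja5 passed in 13 of 15, Dkk3 in 12 and Kcnj3 in all 15. The number of these genes past the threshold was 2 without WT 2-month replicate 1, 2 without ST 2-month replicate 1 and 3 without ST 6-month replicate 3.

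Among the other genes examined beside them, the difference passed for Nppa (3.27), Myl3 (0.65), Chrm2 (-1.16), Kcnj5 (-0.89), Kcna5 (-2.11) and Sbk3 (-2.80). It also passed for Hey2 (-2.23), Flt4 (0.84), Rgs6 (-0.66), Lbh (-0.60), Irx4 (-1.67), Etv1 (-2.15), Dll4 (0.99), Prox1 (-1.08), Nrp2 (1.38), Lyve1 (-1.87), Col1a1 (-1.02) and Col3a1 (-1.08), all as log2 differences of the 6-month minus the 2-month effect. The call held in 7 of 15 alternatives for Nppa (adjusted p up to 0.331), 6 for Kcnj5 (0.148), 8 for Rgs6 (0.107), 10 for Flt4 (0.152) and 14 for Sbk3 (0.0621), and in all 15 for the other named genes of this paragraph.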

How the results depend on the processing

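Over the 5 comparisons, the atrial genes tested (8 at 2 months and 9 in the others, never Bmp10) gave 539 values under other settings. Of these 476 kept their side of the threshold, 48 fell short of it and 15 newly passed, and no called value changed sign. For the other named genes 1843 of 2027 kept the call, 121 fell short, 62 newly passed and 1 reversed: Nppa at 2 months was 0.78 (adjusted p = 0.0401) without WT 2-month replicate 1, within a range of -1.22 to 0.78 over the libraries left out in turn. The 2-month comparison moved most. It called 582 genes, but 1019 with no filter on low counts, 355 with DESeq2, 1237 in 1 fit over all groups, and 271 (without WT replicate 1) to 2013 (without ST replicate 2) when 1 library was left out. Atrial genes called there numbered 3, and 0 to 4 with 1 library left out. For ST at 8 against 6 months 7 were called, 4 with DESeq2 and 5 to 7 with 1 library left out. At 6 months 7 were called, and 5 to 7 with 1 library left out. For ST at 8 months against WT 3 were called, and 2 to 4 with 1 library left out. For the difference between time points 2811 genes and 5 atrial genes were called, and 1558 to 3197 and 2 to 5 with 1 library left out. The causes were not tested.

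Scaling by library size only moved the median of all genes at 6 months by -0.11 on the log2 scale and split the calls into 1731 higher and 3714 lower, against 2643 and 2662. The other splits became 3072 higher and 2140 lower (2464 and 2651 before) for ST at 8 against 6 months, 1880 and 2856 (2329 and 2112) for ST at 8 months against WT, and 1005 and 1893 (1294 and 1517) for the difference between time points. No called atrial gene changed sign under it.

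The labels number the replicates in each group and do not say that the numbers pair the samples. Same-numbered libraries had correlations of 0.0687 at 2 months, 0.0199 to 0.106 at 6 months, 0.0158 to 0.199 between ST at 6 and 8 months and 0.0209 to 0.0553 between WT at 6 and ST at 8 months. In the comparisons of 6 and 8 months not every library correlated best with its own number. At 2 months each did, but with 2 libraries a group these values are 1 correlation with its sign changed (0.0687 and -0.0687). They cannot decide whether the numbers pair the samples. With the replicate number as a block, 636, 5435, 5427, 4652 and 2677 genes were called at 2 months, at 6 months, for ST at 8 against 6 months, for ST at 8 months against WT and for the difference, and 4, 7, 7, 3 and 5 atrial genes. The fourth at 2 months was Myl7 (-0.85, adjusted p = 0.0234).

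Counts were low for Bmp10 in every table, for Sln at 2 months and for Myl4 at 6 and 8 months, which limits the precision of their values.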
